A study of Mus musculus with 5 samples.

Results

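The genes described here are 10 feedback brakes of inflammatory signaling: the mRNA decay genes Zfp36, Zfp36l1, Zfp36l2 and Zc3h12a, the phosphatase genes Dusp1, Dusp2 and Dusp16, and the cytokine signaling inhibitors Socs1, Socs3 and Cish. They were taken by gene symbol from the 24419 rows of the deposited gene table, and each of the 10 had exactly 1 row. RNA was measured in bone marrow-derived macrophages (BMMs) of C57BL/6 mice, grown with 50 ng/ml M-CSF for 5 days and activated with 100 ng/ml LPS. The cells were then cultured for 18 h with PBS (2 libraries, also labeled as untreated) or with 100 ng/ml recombinant semaphorin 3G (Sema3G, 3 libraries). The comparison asks how the macrophage transcriptome responds to this secreted semaphorin, which was studied as a driver of joint inflammation.

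All 5 libraries carry the LPS stimulus, so the brakes were compared within activated cells, and no library without LPS was analysed here. Sema3G was an Fc-tagged protein made by a transfected human embryonic kidney cell line and PBS was its buffer, so that the semaphorin and its tag cannot be told apart. The labels do not say whether the libraries came from separate mice or cultures, so p-values measure only the spread between these samples, which may be technical. In bulk RNA, fewer cells of a type and less RNA per cell cannot be told apart.

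Activated macrophages limit their own response at several levels. Tristetraprolin, the product of Zfp36, and its relatives encoded by Zfp36l1 and Zfp36l2 bind AU-rich elements in the 3′ untranslated regions (3′ UTRs) of cytokine mRNAs and recruit deadenylases that shorten their lifetime, and Regnase-1, the product of Zc3h12a, is an endonuclease that cuts stem-loops in mRNAs of the same kind. Dual-specificity phosphatases remove the phosphates that activate MAP kinases. SOCS proteins and CIS, the product of Cish, are induced by cytokines through STAT transcription factors and block the cytokine receptors or their JAK kinases.

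The brakes are themselves made from short-lived mRNAs, and tristetraprolin is known to limit its own mRNA. The AU-rich elements of the members are shown because they are the sites this class of proteins reads. One coding transcript per gene (the longest coding sequence, then the longest 3′ UTR) of the GENCODE M21 annotation on GRCm38, the same assembly as mm10, was searched on the sense strand. The nonamer TTATTTATT, which contains the shorter motifs TATTTAT and ATTTA, is given in capitals with its flanks, written 5′ to 3′ in the DNA alphabet.
Zfp36, 3′ UTR, chr7:28376953-28376977, minus strand: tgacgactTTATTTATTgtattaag
Zfp36l1, 3′ UTR, chr12:80108169-80108193, minus strand: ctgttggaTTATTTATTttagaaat
Zfp36l2, 3′ UTR, chr17:84184916-84184940, minus strand: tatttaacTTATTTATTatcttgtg
Dusp1, 3′ UTR, first site, chr17:26506161-26506185, minus strand: gctggtccTTATTTATTtaacaccc
Dusp1, 3′ UTR, second site, chr17:26505872-26505896, minus strand: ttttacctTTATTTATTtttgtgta
Cish, 3′ UTR, chr9:107301379-107301403, plus strand: tacagtatTTATTTATTtattctcc

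The nonamer was present in 5 of the 10 members, the 3 Zfp36 family genes, Dusp1 and Cish, against 7.10% of the 19364 3′ UTRs searched and 7.27% of the 8311 with lengths between those of the shortest and longest member. In Cish a second, overlapping nonamer follows in the same run. TATTTAT was present in 7 of the 10 members, against 26.3% of all 3′ UTRs and 30.0% of those of similar length, with Socs3 and Dusp2 added to the first 5. ATTTA was present in 9 of 10, against 63.2% and 79.1%. The exception was Socs1, whose 3′ UTR of 1993 bases held none of the 3 motifs, while that of Zfp36l1 held 9 copies of ATTTA. A match is a description of the sequence, and binding was not measured.

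Levels are given as CPM, the number of unique molecular identifiers (UMIs) of a gene per 1000000 UMIs of the library total. The libraries were made from RNA 3′ ends, with 1 tag per molecule whatever its length, so that levels of different genes are on the same scale without division by length. The totals ranged from 1798469 to 2215855 UMIs per library, and 3 UMIs, the limit used here for detection, correspond to between 1.35 and 1.67 CPM. The share of the total on listed genes was 77.6% and 75.6% with PBS and 71.3%, 67.1% and 65.9% with Sema3G, and Rn45s, the ribosomal RNA precursor, took 1.01% and 3.19% with PBS and 6.31%, 7.40% and 7.88% with Sema3G. Both quantities moved with the groups, and their part in the results was not tested. Sema3G replicates 2 and 3 were far more alike (chi-square per degree of freedom 1.77) than the other 9 pairs of libraries (6.57 to 29.6), and they differed by more than sampling noise. The 8 macrophage markers summed to 12570 and 9761 CPM with PBS and 8860, 9518 and 9295 CPM with Sema3G, without overlap. Csf1r and Lyz2 were the most abundant of the 8. Taken singly, the groups did not overlap for 2 in the higher direction (Itgam and Mertk) and 2 in the lower (Adgre1 and Csf1r). Over all genes tested these shares were 11.9% and 26.5%. Of the 8 macrophage markers 7 were above 3 UMIs in every library. Mertk had 2 and 0 UMIs with PBS and 5, 4 and 5 UMIs with Sema3G. The 6 LPS response markers summed to 97154 and 126930 CPM with PBS and 69849, 80803 and 74205 CPM with Sema3G, without overlap, most of it Saa3 (log2 fold change -0.58, limma adjusted p = 0.685), while the groups overlapped for the other 5. Neutrophil markers summed to between 103 and 169 CPM, nearly all S100a8, with Elane, Ngp and Retnlg at 0 UMIs, and stromal markers to between 10.7 and 28.0 CPM with none of the 5 at 0 throughout. Lymphoid markers summed to at most 3.34 CPM with 6 of 8 at 0 UMIs in every library, and the dendritic cell and mast cell or basophil markers to at most 2.22 and 0.556 CPM. The part of these cells or of the LPS response level in the results was not tested.

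With PBS the most abundant member was Socs3, followed by Zfp36l1, Zc3h12a, Zfp36, Dusp1, Dusp16, Zfp36l2, Socs1, Dusp2 and Cish. The ranges of neighbours in this order overlapped between Dusp2 and Cish only. With Sema3G, Zfp36l2 moved up between Zc3h12a and Zfp36, and its range overlapped those of both and of Dusp1. The ranges of Socs3 and Zfp36l1 also overlapped in the Sema3G libraries.

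**Figure D1:**
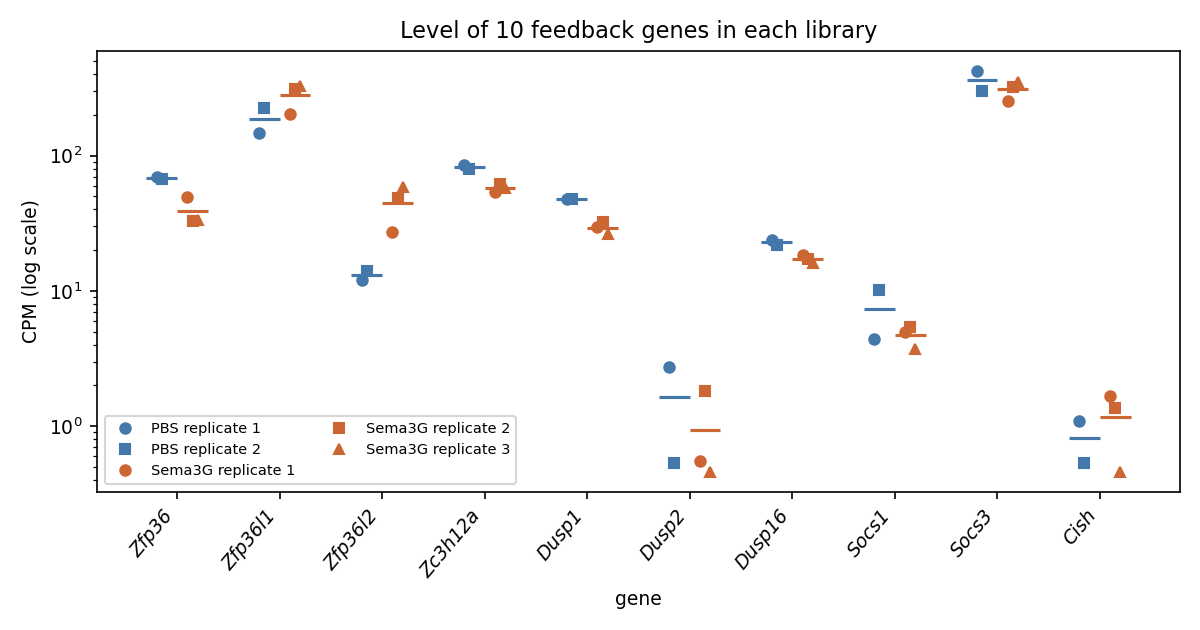
Level of each of the 10 genes in each library, in CPM on a log scale, with PBS libraries in blue and Sema3G libraries in orange, the marker shape giving the replicate number and the short line the group mean. Zfp36l2 lies higher in the 3 Sema3G libraries than in both PBS libraries, Zfp36, Zc3h12a, Dusp1 and Dusp16 lie lower, and the groups overlap for the other 5 genes.

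One of the 10 genes passed the test, Zfp36l2, which rose with Sema3G, and no member passed it in the other direction. All 10 were above the filter of a mean of 1 CPM, and changes are differences of mean log2(CPM + 1), Sema3G minus PBS, tested with limma over the 10088 genes above that filter with Benjamini-Hochberg adjustment at 0.05. Among all genes tested 1.59% were called higher and 0.218% lower. Without adjustment, 2 members were higher and 3 lower at a limma p under 0.05, against 6.83% and 14.2% of all genes tested. On UMI counts recovered from the CPM, edgeR's quasi-likelihood test and DESeq2 each also called 1 member higher and 0 lower, with 2 higher and 2 lower (edgeR) and 2 higher and 1 lower (DESeq2) without adjustment. Without adjustment edgeR put 11.0% of all genes higher and 5.14% lower, and DESeq2 put 7.67% higher and 1.76% lower.

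The groups did not overlap for 5 members, 1 higher and 4 lower with Sema3G. Among all genes tested the groups did not overlap for 11.9% in the higher and 26.5% in the lower direction, which sets the background for the members' 1 and 4 of 10. The median log2 fold change was -0.38 over the 10 members and -0.22 over all genes tested. With TMM-scaled CPM the median of all genes was -0.034 and with CPM over listed genes without Rn45s it was 0.043. Changes relative to the median of all genes are therefore given for the decay genes, Dusp1 and Dusp16.

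**Figure D2:**
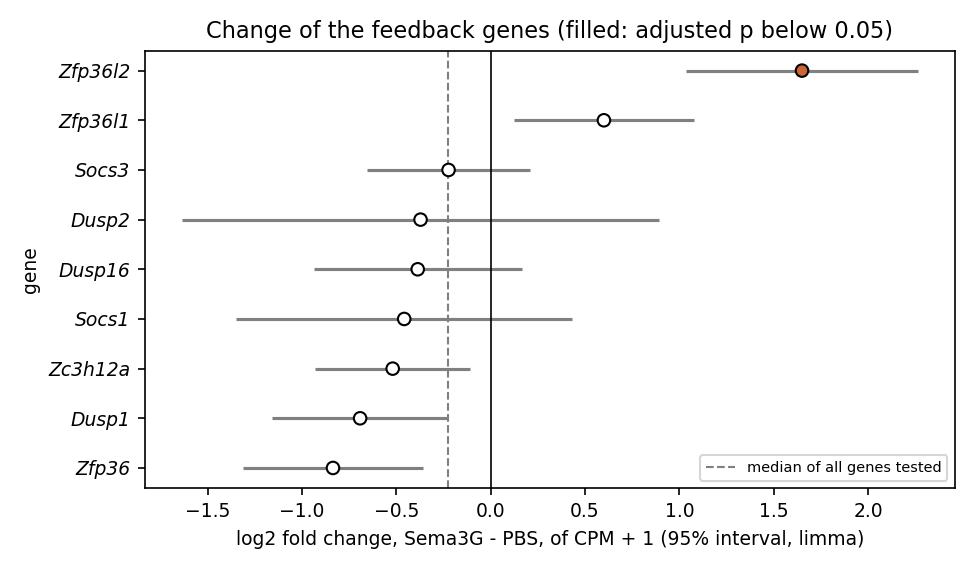
Log2 fold change of CPM + 1 (Sema3G minus PBS) of 9 genes with the 95% interval from limma, where a filled point has an adjusted p below 0.05, the solid line marks 0 and the dashed line the median of all genes tested at -0.22. Cish is not drawn because it had 3 UMIs or fewer in every library. The intervals of Zfp36l2 and Zfp36l1 lie wholly above 0, and those of Zfp36, Zc3h12a and Dusp1 wholly below it. Those of Socs3, Socs1, Dusp16 and Dusp2 contain both 0 and the median. Only the point of Zfp36l2 is filled.

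Zfp36l2 encodes the family member best known from lymphocyte and blood cell development. The gene (ENSMUSG00000045817.8) lies at chr17:84183931-84187947 on the minus strand. It had 22 and 26 UMIs with PBS and 49, 108 and 128 UMIs with Sema3G replicates 1, 2 and 3, or 12.1 and 13.9 CPM against 27.2, 48.7 and 59.0 CPM. Every Sema3G library was above both PBS libraries, the PBS libraries were close to each other, and Sema3G replicate 1 lay between them and the other Sema3G libraries. The mean rose from 13.0 ± 1.30 CPM (SD, n = 2) to 45.0 ± 16.2 CPM (SD, n = 3), a log2 fold change of 1.65 (SE 0.29, 95% interval 1.04 to 2.26, limma adjusted p = 0.00691). Measured from that median, the difference was 1.87. The ratio of the summed UMIs per total was 3.54 (95% interval 2.60 to 4.91, for counting error only).

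The call of Zfp36l2 depended on both Sema3G replicates 2 and 3, the most similar pair of libraries. Without Sema3G replicate 2 its log2 fold change was 1.56 (limma adjusted p = 0.0522), and without Sema3G replicate 3 it was 1.42 (limma adjusted p = 0.0755). Chosen after seeing the data, a fit with the 2 averaged into 1 library gave 1.49 (limma adjusted p = 0.132). In these 3 settings the calls over all genes also dropped, to 26, 28 and 19 higher and 0 lower. Under the other 13 of the 16 alternatives tried the gene was called, with log2 fold changes of 1.42 to 2.03.

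Zfp36 went in the opposite direction without passing the test. It encodes tristetraprolin, which LPS induces and which targets Tnf mRNA, and the gene (ENSMUSG00000044786.6) lies at chr7:28376784-28380253 on the minus strand. It had 127 and 126 UMIs with PBS and 89, 73 and 73 UMIs with Sema3G, or 69.8 and 67.5 CPM against 49.5, 32.9 and 33.7 CPM. The PBS libraries were almost equal, and all 3 Sema3G libraries were below them, replicate 1 the least. The means were 68.6 ± 1.64 CPM (SD, n = 2) and 38.7 ± 9.35 CPM (SD, n = 3), with a log2 fold change of -0.84 (SE 0.23, 95% interval -1.31 to -0.36, limma adjusted p = 0.0671) and of -0.61 relative to the median. It passed the limit without Sema3G replicate 1 (-1.02, limma adjusted p = 0.0122), a fit in which the calls over all genes rose to 303 higher and 553 lower. Without Sema3G replicate 2 or 3 the limma adjusted p was 0.341 and 0.295, with CPM over listed genes without Rn45s the log2 fold change was -0.55 (limma adjusted p = 0.174), and with DESeq2 it was -0.63 (adjusted p = 0.292).

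Zfp36l1, the family member known from restraint of the cell cycle and from vascular development, was the second most abundant brake. The gene (ENSMUSG00000021127.7) lies at chr12:80107754-80113013 on the minus strand. Its levels were 148 and 223 CPM with PBS and 205, 311 and 330 CPM with Sema3G. The groups overlapped, since Sema3G replicate 1 was below PBS replicate 2, and the PBS libraries themselves differed by a ratio of 1.51 (95% interval 1.29 to 1.77, counting error only). The mean was 186 ± 53.3 CPM with PBS (SD, n = 2) and 282 ± 67.6 CPM with Sema3G (SD, n = 3), a log2 fold change of 0.60 (SE 0.23, 95% interval 0.12 to 1.08, limma adjusted p = 0.153), or 0.83 relative to the median of all genes. Of the 16 alternatives, 2 brought it past the limit, CPM over listed genes without Rn45s (0.89, limma adjusted p = 0.0460), under which the groups no longer overlapped, and the fit without Sema3G replicate 1 (0.82, limma adjusted p = 0.0259). The smallest difference, 0.30 (limma adjusted p = 0.588), came with PBS replicate 1 left out.

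Zc3h12a encodes Regnase-1, whose loss in macrophages is known to raise cytokine output. The gene (ENSMUSG00000042677.7) lies at chr4:125118423-125127840 on the minus strand. It had 85.2 and 80.3 CPM with PBS and 53.9, 61.4 and 57.2 CPM with Sema3G. The libraries of each group lay close together and the groups did not overlap. The means were 82.7 ± 3.44 CPM (SD, n = 2) and 57.5 ± 3.73 CPM (SD, n = 3), a log2 fold change of -0.52 (SE 0.19, 95% interval -0.93 to -0.11, limma adjusted p = 0.152), or -0.29 relative to the median of all genes. Its adjusted p stayed above 0.05 under all 16 alternatives.

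The make-up of the Zfp36 family can be compared within a library, where the scaling to the total plays no part. Zfp36 made up 30.4% and 22.1% of the family's UMIs with PBS and 17.6%, 8.39% and 7.96% with Sema3G. Zfp36l2 made up 5.26% and 4.57% with PBS and 9.68%, 12.4% and 14.0% with Sema3G. Zfp36l1 was the main member in every library, with 64.4% and 73.3% against 72.7%, 79.2% and 78.1%. A share also moves with the counts of the other family genes. With PBS, Zfp36 itself had 127 and 126 UMIs, while Zfp36l1 had 269 and 417 UMIs.

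For Zfp36 and Zfp36l2 the groups did not overlap in these shares, while for Zfp36l1 Sema3G replicate 1 was below PBS replicate 2. For Zfp36 the exact binomial 95% intervals of PBS replicate 2 (18.8% to 25.8%) and Sema3G replicate 1 (14.4% to 21.2%) overlapped, as did those of Zfp36l2 in PBS replicate 1 (3.33% to 7.86%) and Sema3G replicate 1 (7.25% to 12.6%). The mean share of Zfp36 was 26.3 ± 5.83% (SD, n = 2) with PBS and 11.3 ± 5.44% (SD, n = 3) with Sema3G. That of Zfp36l2 was 4.92 ± 0.491% (SD, n = 2) and 12.0 ± 2.16% (SD, n = 3).

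Set directly against each other, there were 5.77 and 4.85 Zfp36 UMIs per Zfp36l2 UMI with PBS and 1.82, 0.676 and 0.570 with Sema3G. Tristetraprolin mRNA was thus the more abundant of the pair in both PBS libraries and in Sema3G replicate 1, and the less abundant in Sema3G replicates 2 and 3. The family as a whole had 230 and 305 CPM with PBS and 281, 393 and 423 CPM with Sema3G, with overlapping groups. These shares are descriptions without a test of their own.

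**Figure D3:**
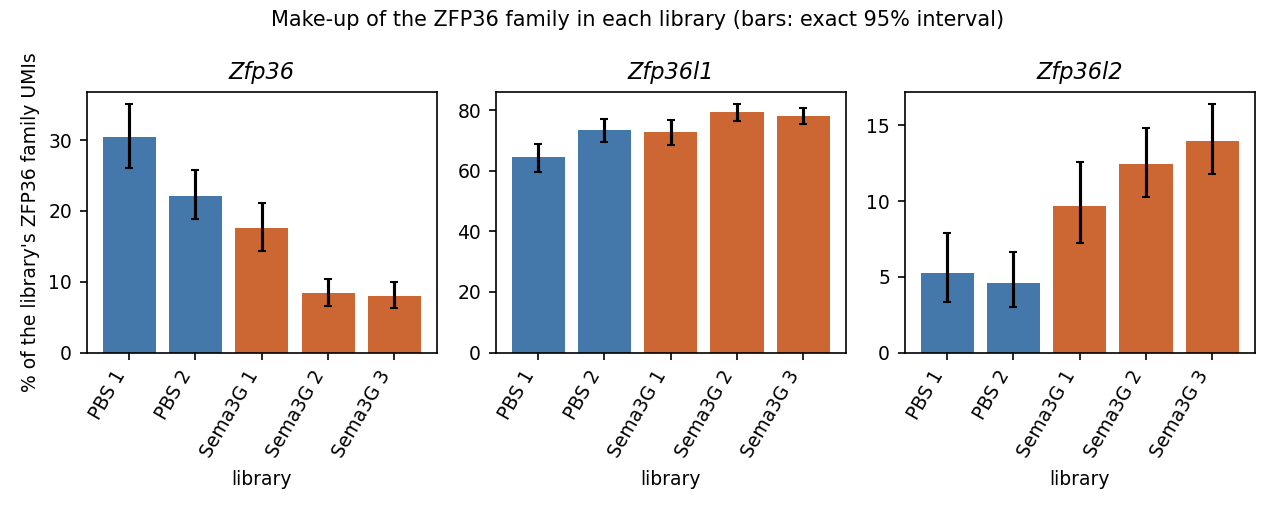
Share of each Zfp36 family gene in the family's UMIs of each library (percent, each panel with its own axis from 0), where bars are libraries, PBS in blue and Sema3G in orange, and error bars are exact binomial 95% intervals. The share of Zfp36 runs from 30.4% down to 7.96% and that of Zfp36l2 from 4.57% up to 14.0%, with the Sema3G libraries on opposite sides of the PBS libraries in the outer panels.

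Of the phosphatases, none passed the test, by limma, edgeR or DESeq2. Dusp1 encodes MKP-1, the phosphatase that LPS induces early and that switches off p38 and JNK. The gene (ENSMUSG00000024190.7) lies at chr17:26505590-26562128 on the minus strand. It had 87 and 89 UMIs with PBS and 53, 71 and 57 UMIs with Sema3G, or 47.8 and 47.6 CPM against 29.5, 32.0 and 26.3 CPM. The PBS libraries were nearly identical and all 3 Sema3G libraries lay below them. The means were 47.7 ± 0.109 CPM (SD, n = 2) and 29.3 ± 2.89 CPM (SD, n = 3), a log2 fold change of -0.69 (SE 0.22, 95% interval -1.16 to -0.22, limma adjusted p = 0.111), or -0.47 relative to the median of all genes.

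Dusp16 encodes MKP-7, which acts mainly on JNK and p38, and lies at chr6:134715468-134792625 on the minus strand (ENSMUSG00000030203.17). Its levels were 23.6 and 21.9 CPM with PBS and 18.3, 17.1 and 16.1 CPM with Sema3G. The groups did not overlap, but the difference was small, with a log2 fold change of -0.39 (SE 0.26, 95% interval -0.94 to 0.16, limma adjusted p = 0.400) and of -0.16 relative to the median.

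Dusp2 encodes PAC-1, a phosphatase of activated leukocytes, and lies at chr2:127336159-127338376 on the plus strand (ENSMUSG00000027368.6). It was close to the detection limit, with 5 and 1 UMIs with PBS and 1, 4 and 1 UMIs with Sema3G. The ratio of summed UMIs per total was 0.596 (95% interval 0.159 to 2.23, counting error only), so that neither a fall nor a rise was detectable at this depth. Without PBS replicate 1 it no longer reached the filter of a mean of 1 CPM.

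Of the cytokine signaling inhibitors, none passed the test by limma, edgeR or DESeq2. Socs3, which blocks signaling by gp130 receptors such as that for IL-6, was the most abundant brake and lies at chr11:117966079-117970047 on the minus strand (ENSMUSG00000053113.3). It had 424 and 301 CPM with PBS and 255, 323 and 349 CPM with Sema3G. The groups overlapped, and the highest and lowest libraries, PBS replicate 1 and Sema3G replicate 1, carry the same number in the labels. The PBS libraries differed by a ratio of 0.711 (replicate 2 over 1, 95% interval 0.636 to 0.793, counting error only), a spread wider than that between the summed groups (0.863, 95% interval 0.804 to 0.926). The log2 fold change was -0.22 (SE 0.21, 95% interval -0.65 to 0.21, limma adjusted p = 0.537), which equals the median of all genes to 2 decimals and turned positive under 3 alternatives.

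Socs1, which restrains interferon and Toll-like receptor responses, lies at chr16:10782240-10785536 on the minus strand (ENSMUSG00000038037.5). It had 8 and 19 UMIs with PBS and 9, 12 and 8 UMIs with Sema3G, or 4.40 and 10.2 CPM against 5.00, 5.42 and 3.69 CPM. PBS replicate 2 alone stood above the rest. The log2 fold change was -0.46 (SE 0.42, 95% interval -1.35 to 0.43, limma adjusted p = 0.540), and without PBS replicate 2 it was 0.067.

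Cish encodes CIS, a brake on STAT5 signals of cytokines such as GM-CSF, and lies at chr9:107296026-107302784 on the plus strand (ENSMUSG00000032578.7). It had 2 and 1 UMIs with PBS and 3, 3 and 1 UMIs with Sema3G. No library exceeded 3 UMIs, so no fold change is given, and a difference was not detectable at this depth.

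For Zfp36, Zfp36l1, Zfp36l2, Dusp1 and Cish an exon of a gene on the opposite strand overlaps the member in the annotation. Only the partner of Dusp1, Ergic1, had a row in the table. The sources used here do not give the strand setting of the counting, so it is not known whether reads of the partners were counted with these genes. Whether the overlaps reach the counted 3′ ends was not examined.

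**Figure D4:**
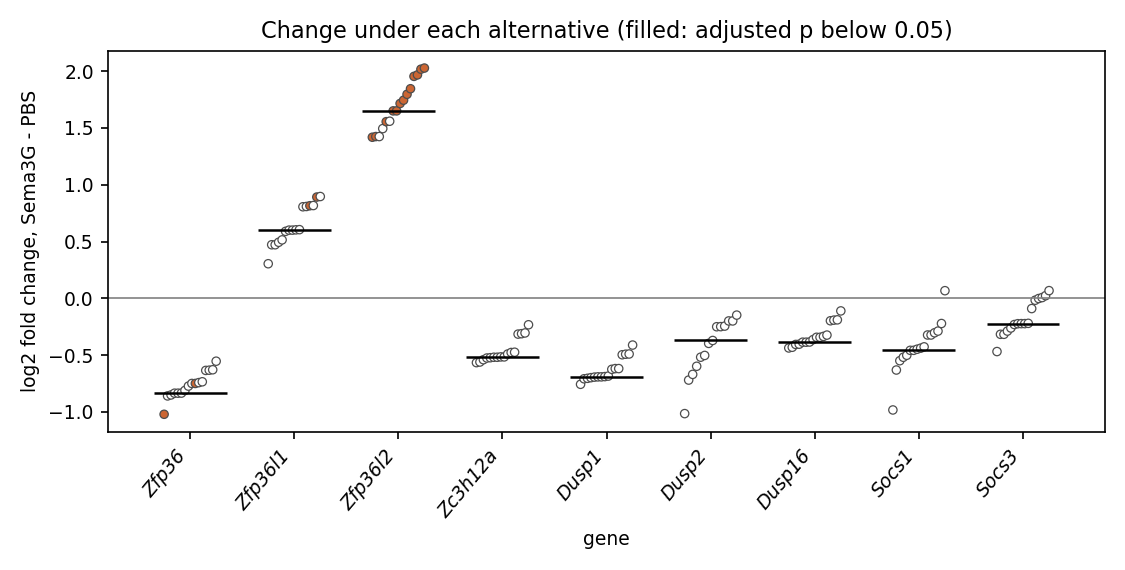
Log2 fold change (Sema3G minus PBS) of 9 genes under each of 16 alternative settings (14 for Dusp2, which missed the filter in the others), 1 point per setting in rising order, filled where the adjusted p was below 0.05, with the main value as a short line; Cish is not drawn. Points of Zfp36l2 lie between 1.42 and 2.03 with 13 of 16 filled, those of Zfp36, Zc3h12a, Dusp1, Dusp2 and Dusp16 stay below 0, and those of Socs1 and Socs3 cross it.

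The promoters of the members were searched for motifs of the factors that induce them, in the RefSeq windows of 250 bases before to 50 after the start (GRCm38.p6), on both strands. Windows were found for Zfp36, Zfp36l1, Zc3h12a, Dusp1, Dusp2, Dusp16, Socs1, Socs3 and Cish. Zfp36l2, the member that was called, had no window and was not searched. The STAT motif TTCNNNGAA and the cyclic AMP response element TGACGTCA are shown in capitals with flanks on the gene's strand, because few members held them.
Zfp36, promoter, chr7:28379228-28379254, minus strand: cagcctgacTTCTGCGAAccgacagtc
Socs3, promoter, chr11:117969503-117969529, minus strand: aaaccagccTTCTTAGAAgggaggggg
Cish, promoter, first site, chr9:107296650-107296676, plus strand: cgcccagttTTCCTGGAAagttcttgg
Cish, promoter, second site, chr9:107296661-107296687, plus strand: cctggaaagTTCTTGGAAatctgtcaa
Dusp1, promoter, chr17:26508599-26508624, minus strand: tagggcgggTGACGTCAccgcccggt

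TTCNNNGAA was present in 3 of the 9 windows, those of Zfp36, Socs3 and Cish, against 8.47% of all 27025 windows. The site of Zfp36 begins 17 bases before the start and that of Socs3 begins 154 bases before it, while those of Cish begin at bases 1 and 12 of the transcript. TGACGTCA was present in 1 of the 9, that of Dusp1, beginning 143 bases before the start, against 1.88% of all windows. A loose NF-kB-like pattern (3 G, any 5 bases, 2 C) was present in 7 of the 9, against 50.4%, and a loose SRF-like pattern (2 C, any 6 bases, 2 G) in 8 of the 9, against 73.0%. Of the 3 genes with a STAT motif, Zfp36 was lower in every Sema3G library than in both PBS libraries, and Socs3 and Cish overlapped between the groups.

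The other genes of the same pathways were taken from 8 lists of 146 genes in all, of which 126 were above the filter. Of these, 2 were called higher and 1 lower by limma, the groups did not overlap for 13 in the higher and 30 in the lower direction, and their median log2 fold change was -0.18. Over all genes tested the shares were 1.59% called higher, 0.218% called lower, 11.9% not overlapping in the higher and 26.5% in the lower direction, and these are also the background of the counts of each list. For counts at an unadjusted p under 0.05 the background is 6.83% higher and 14.2% lower by limma, 11.0% and 5.14% by edgeR, and 7.67% and 1.76% by DESeq2. The genes called higher were Btg1 and Xrn1, both of the list of deadenylation and decay machinery, and the gene called lower was Mapk3.

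Btg1, an antiproliferative protein that binds the CCR4-NOT deadenylase, had 48.9 and 123 CPM with PBS and 150, 207 and 225 CPM with Sema3G. All Sema3G libraries were above both PBS libraries, though PBS replicate 2 was much nearer to them than PBS replicate 1. Its log2 fold change was 1.29 (SE 0.28, limma adjusted p = 0.0259), and it was called under 9 of the 16 alternatives. The call was lost without PBS replicate 1 (0.63, limma adjusted p = 0.220), Sema3G replicate 2 (1.23, limma adjusted p = 0.107) or Sema3G replicate 3 (1.17, limma adjusted p = 0.133), and with DESeq2 (1.37, adjusted p = 0.292). Without PBS replicate 2 the value was 1.95. Xrn1, the exonuclease that degrades decapped mRNA from the 5′ end, had 12.1 and 16.1 CPM with PBS and 30.6, 37.9 and 27.7 CPM with Sema3G. The groups were well apart, with a log2 fold change of 1.13 (SE 0.26, limma adjusted p = 0.0351), and Xrn1 was called under 11 of the 16 alternatives. The call was lost without PBS replicate 1 (0.94, limma adjusted p = 0.145), Sema3G replicate 2 (1.01, limma adjusted p = 0.275) or Sema3G replicate 3 (1.23, limma adjusted p = 0.118).

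The decay machinery list as a whole had a median near 0. Of its 26 genes, all above the filter, the groups did not overlap for 5 in the higher and 4 in the lower direction, and the median was -0.019. The largest fall was that of Pan2, a poly(A) nuclease subunit, with a log2 fold change of -1.04 (limma adjusted p = 0.167). Without adjustment, 4 genes of the list were higher and 2 lower at a limma p under 0.05.

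Of the 13 tested genes among 15 other RNA-binding proteins that steer mRNA decay, none was called by limma, edgeR or DESeq2. At an unadjusted p under 0.05, limma put 1 higher and 2 lower. The counts were 4 higher and 0 lower by edgeR, and 3 higher and 0 lower by DESeq2. The groups did not overlap for 5 in each direction, and the median was -0.16. The most abundant, the ribonuclease gene N4bp1, had a log2 fold change of 0.18 (limma adjusted p = 0.579). Zc3h12c, a relative of Regnase-1, had 1 and 2 UMIs with PBS and 8, 5 and 10 UMIs with Sema3G (log2 fold change 1.37, limma adjusted p = 0.144), and Elavl1, which encodes the mRNA-stabilizing protein HuR, had 51.1 and 46.0 CPM with PBS and 38.4, 28.9 and 26.3 CPM with Sema3G (log2 fold change -0.64, limma adjusted p = 0.143). Elavl1 passed the limit without Sema3G replicate 1 (-0.79, limma adjusted p = 0.0417).

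Of 25 mRNAs known as targets of tristetraprolin or Regnase-1, 19 were above the filter and none was called by limma, edgeR or DESeq2, with 0 at an unadjusted limma p under 0.05, 3 by edgeR and 1 by DESeq2. The median was -0.21, and the groups did not overlap for 1 in the higher and 2 in the lower direction. Il1b, the most abundant, had a log2 fold change of -0.21 (limma adjusted p = 0.702), the chemokine gene Cxcl2 had one of 0.65 (limma adjusted p = 0.307), and Csf3, with 1 and 8 UMIs with PBS and 0, 0 and 1 UMIs with Sema3G, had one of -1.33 (limma adjusted p = 0.248). The value of Csf3 rests on PBS replicate 2, without which it no longer reached the filter, and was -2.22 without PBS replicate 1. Tnf, a classic target of tristetraprolin and chosen here after its values were seen, had 27 and 16 UMIs with PBS and 25, 22 and 20 UMIs with Sema3G, with overlapping groups. Cxcl2 passed the limit when Sema3G replicate 1 was left out (1.18, limma adjusted p = 0.0169), but without PBS replicate 1 its value was 0.14 (limma adjusted p = 0.892) and without Sema3G replicate 2 or 3 it was 0.39 in both fits. Pim1, a kinase gene named because it alone did not overlap in the higher direction, had 126 and 134 CPM with PBS and 147, 187 and 176 CPM with Sema3G (log2 fold change 0.38, limma adjusted p = 0.248). It was called with CPM over listed genes without Rn45s (0.67, limma adjusted p = 0.0455).

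Among the MAP kinases and the kinases above and below them, 22 of 25 were tested and 1 was called, Mapk3, which encodes the kinase ERK1. It fell from 429 and 546 CPM with PBS to 335, 250 and 238 CPM with Sema3G, a log2 fold change of -0.83 (SE 0.20, limma adjusted p = 0.0439). The call was near its limit and held under 5 of the 16 alternatives. It was lost without PBS replicate 2 (-0.66, limma adjusted p = 0.130), Sema3G replicate 2 (-0.77, limma adjusted p = 0.294) or Sema3G replicate 3 (-0.74, limma adjusted p = 0.266), and with TMM-scaled CPM (-0.63, limma adjusted p = 0.0889). Mapk14, which encodes the kinase p38 alpha and was chosen after its values were seen, had 127 and 142 CPM with PBS and 101, 65.9 and 70.5 CPM with Sema3G (log2 fold change -0.78, limma adjusted p = 0.0657). It was called lower without Sema3G replicate 1 (-0.97, limma adjusted p = 0.0103), the fit with 553 genes called lower over the whole table. The largest rise in this list was that of Mapkapk5, a kinase downstream of p38, with a log2 fold change of only 0.083 (limma adjusted p = 0.885). The median of the list was -0.14, and the groups did not overlap for 0 genes in the higher and 4 in the lower direction.

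Of the 19 other dual-specificity phosphatase genes, 11 were tested and none was called by limma, edgeR or DESeq2, with 0 higher and 3 lower at an unadjusted limma p under 0.05. The groups did not overlap for 0 in the higher and 6 in the lower direction, with a median of -0.33. Dusp3, the most abundant, had a log2 fold change of -0.029 (limma adjusted p = 0.946). Dusp18 had 7 and 0 UMIs with PBS and 6, 1 and 5 UMIs with Sema3G (log2 fold change 0.32, limma adjusted p = 0.806), and Dusp19 had 7 and 10 UMIs with PBS and 4, 3 and 3 UMIs with Sema3G (log2 fold change -1.08, limma adjusted p = 0.208). Dusp6, the ERK phosphatase and chosen after its values were seen, had 157 and 198 CPM with PBS and 113, 105 and 104 CPM with Sema3G (log2 fold change -0.71, limma adjusted p = 0.0613). It was called lower without Sema3G replicate 1 (-0.75, limma adjusted p = 0.0250), again among 553 genes called lower.

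The lists next to the SOCS genes gave no call by limma, edgeR or DESeq2. Of the 9 other SOCS genes and subunits of the ligase that the SOCS box recruits, 1 was higher and 1 lower at an unadjusted limma p under 0.05, with a median of -0.25. The ligase subunit genes Elob and Eloc, listed as Tceb2 and Tceb1, had log2 fold changes of -0.25 (limma adjusted p = 0.436) and -0.68 (limma adjusted p = 0.0939), and the scaffold gene Cul5 had one of 0.64 (limma adjusted p = 0.152). Tceb1 passed the limit in the fit without Sema3G replicate 1 (-0.71, limma adjusted p = 0.0470), and Cul5 passed it with CPM over listed genes without Rn45s (0.93, limma adjusted p = 0.0300). Of the 14 JAK kinases and other brakes on them, 1 was higher and 1 lower at an unadjusted limma p under 0.05, with a median of -0.24. Here the phosphatase genes Ptpn1 and Ptpn11 had log2 fold changes of 0.025 (limma adjusted p = 0.956) and 0.60 (limma adjusted p = 0.158), and the adaptor gene Sh2b3 had one of -0.63 (limma adjusted p = 0.202). Ptpn11 passed the limit with CPM over listed genes without Rn45s (0.89, limma adjusted p = 0.0299).

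The 12 tested genes of 13 other brakes on Toll-like receptor signals gave no call by limma, edgeR or DESeq2 either, with a median of -0.16. At an unadjusted p under 0.05, limma put 0 higher and 2 lower. By edgeR and by DESeq2, 1 of these genes was higher and 0 were lower. The groups did not overlap for 0 of them in the higher and 4 in the lower direction. Irak3, the inhibitory kinase relative IRAK-M, had a log2 fold change of -0.066 (limma adjusted p = 0.855). The transcriptional repressor gene Atf3 had one of 0.40 (limma adjusted p = 0.308), which was 0.081 without PBS replicate 1 and 0.71 without PBS replicate 2, and Il1rn, the receptor antagonist of IL-1, had one of -0.58 (limma adjusted p = 0.189).

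**Figure D5:**
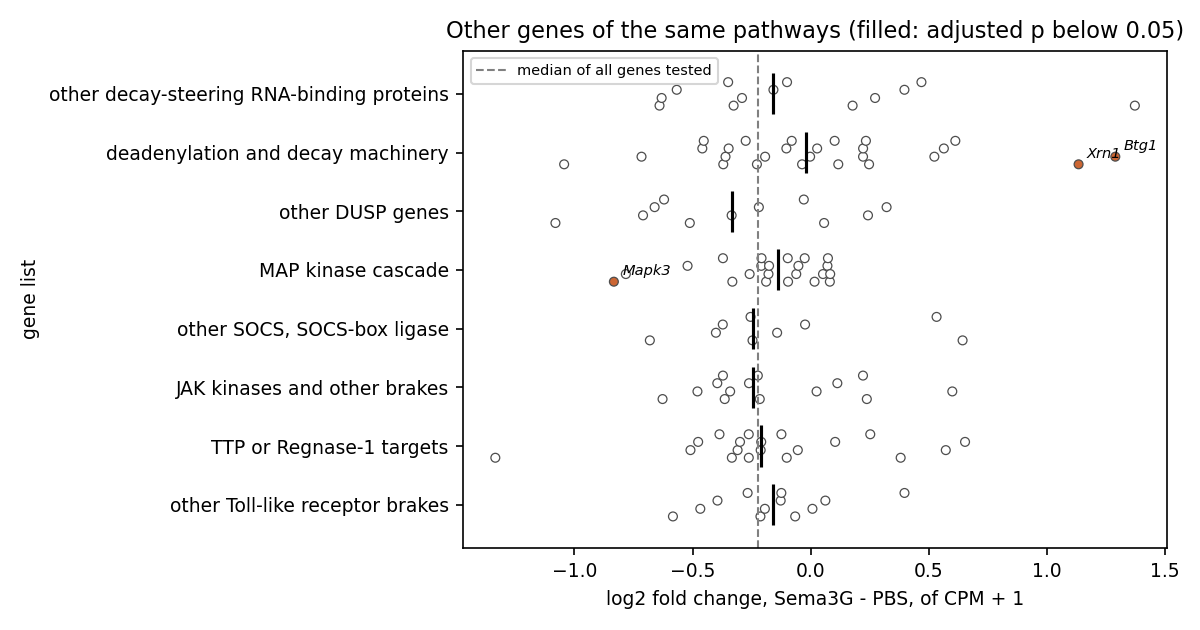
Log2 fold change of CPM + 1 (Sema3G minus PBS) of each tested gene of the 8 pathway lists, 1 row per list, with filled points for an adjusted p below 0.05, a short black line at each list's median and a dashed line at the median of all genes tested (-0.22). Only Btg1 and Xrn1 on the right and Mapk3 on the left are filled, and the list medians lie between -0.33 and -0.019.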

How the data were processed

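Per the authors' methods, RNA 3′-end libraries with UMIs (QuantSeq FWD) were sequenced. The authors mapped reads to mm10, counted UMIs with Strand NGS, and normalized and tested them with edgeR (3.12 in the submitters' notes). The authors deposited CPM values per gene and library, and also the p-values, q-values and ranks from their own test, none of which was used. The sources used here do not give the annotation, filter or strand setting. The CPM were whole multiples of 1 UMI (100% within 0.01), which returned the counts. Sema3G replicates 2 and 3 differed beyond sampling noise over 7918 genes (20 or more counts in the pair) and were counted as 2 samples.

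The main test was limma (3.58.1, under R 4.3.3) with its intensity trend on log2(CPM + 1), without covariates, for genes averaging 1 CPM or more. edgeR (4.0.16, quasi-likelihood) and DESeq2 (1.42.0) on recovered counts were alternatives, with pseudocounts of 0.1 and 5, no filter, a mean of 5 CPM, TMM scaling, CPM over listed genes without Rn45s, edgeR by library size only, a replicate block and each library left out. Averaging Sema3G replicates 2 and 3 was added after seeing the data. The fits were tested on simulated data. Intervals of fold changes come from limma and reflect the spread between libraries. Intervals of UMI ratios and shares, and detection limits, cover counting error only.

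The members and lists were chosen with earlier results of these data known. From each list were named the genes past the adjusted p and those with the highest mean CPM, the largest rise and the largest fall, with Tnf, Pim1, Mapk14 and Dusp6, named after their values were seen, as exceptions. The list genes Cnot9, Elob, Eloc and Acod1 were matched by older symbols. Protein sequences were not used here.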

Additional observations from a re-analysis of the deposited data

How the results depend on the processing

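Among the members 1 gene was called, against 2 with CPM over listed genes without Rn45s, 2 with the replicate block, 0 with Sema3G replicates 2 and 3 averaged and 0 to 3 when 1 library was left out (3 without Sema3G replicate 1, 0 without Sema3G replicate 2 or 3). Among the other pathway genes 3 were called, against 0 with no filter, 6 with CPM over listed genes, 1 with edgeR by library size only, 1 with DESeq2, 5 with the replicate block, 0 with the averaged libraries and 0 to 9 when 1 library was left out. The cause of these changes was not tested.

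The labels give the groups only shared replicate numbers. Same-numbered libraries deviated together with correlations of 0.17 and 0.11 over genes, and with 2 pairs this does not show a pairing. PBS replicate 2 and Sema3G replicate 3, which share no number, had a correlation of 0.097. With the replicate block Zfp36 (-0.75, limma adjusted p = 0.0157), Dusp6 (-0.69, limma adjusted p = 0.00544) and Mapk14 (-0.71, limma adjusted p = 0.00596) were called, and that fit leaves Sema3G replicate 3 without a partner.

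Over all genes the calls were 160 higher and 22 lower, against 325 and 3 with TMM-scaled CPM, 486 and 1 with CPM over listed genes, 301 and 3 with edgeR and TMM, and 243 and 1 with DESeq2, 104 and 4 with no filter, 298 and 275 with the replicate block, 83 and 9 without PBS replicate 1, and 303 and 553 without Sema3G replicate 1.

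Of the named genes refitted in each setting whose filter they reached, other than Cish, Tnf, Pim1, Dusp6 and Mapk14, 9 turned direction, and none of those was called in any of these settings. Socs3 was 0.068 with CPM over listed genes and 0.0065 with DESeq2, and when 1 library was left out it ranged from -0.47 to 0.023. Socs1 ranged from -0.98 to 0.067 in those fits. Dusp3 was 0.18 with TMM-scaled CPM, 0.18 with edgeR and TMM, 0.18 with DESeq2 and 0.26 with CPM over listed genes, with -0.11 to 0.056 when 1 library was left out. Irak3 was 0.14, 0.14, 0.15 and 0.22 in the same 4 settings. Il1b was 0.00077 with DESeq2 and 0.082 with CPM over listed genes, and Tceb2 was 0.043 with the latter. Ptpn1 was -0.039 with the replicate block. When 1 library was left out, Il1b ranged from -0.60 to 0.18, Ptpn1 from -0.16 to 0.21, Mapkapk5 from -0.35 to 0.51 and Dusp18 from -0.82 to 1.46. Of the other values for members, 131 kept their direction and side of the threshold. Depth limits Cish, Dusp2 and Socs1 most.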
